A study of Mus musculus with 2 samples.

Results

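Translation initiation and elongation factors are the proteins that load ribosomes onto mRNA and drive them along it. The genes described here are those named Eif1 to Eif6 or Eef1 to Eef2 with any suffix in the deposited read counts of mouse dorsal striatum, leaving out the Y-linked Eif2s3y. There were 63 such genes among 32531 gene symbols, 54 named Eif (initiation) and 9 named Eef (elongation). Of these, 58 had at least 50 counts over both libraries and are called measured below. The other 5 are given by their counts only.

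The libraries came from mice with long daily access to intravenous cocaine, which they took by self-administration. One library represents mice that escalated their intake and 1 represents mice that did not; both groups had cocaine. All mice carried the Drd1-TRAP transgene of line CP73, a bacterial artificial chromosome in which Drd1 regulatory sequence drives an EGFP-tagged Rpl10a. Their strain is given as FVB/N-Swiss Webster stock with no fewer than 9 generations of C57BL/6 crossing. Both libraries are the input, that is, total RNA of the dissected tissue, so all its cell types contribute. No source used here gives the number, age or sex of the animals behind a library, the cocaine dose or the time of collection.

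In eukaryotes, eIF2 brings the initiator tRNA to the small ribosomal subunit, eIF3 serves there as a scaffold, and the eIF4 group recruits the capped mRNA. Kinases that phosphorylate eIF2, and binding proteins that sequester the cap-binding protein eIF4E, slow initiation. During elongation eEF1A delivers aminoacyl-tRNA and eEF2 moves the ribosome along. In neurons these steps are known targets of signalling at synapses, where local translation accompanies plasticity.

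Reads assigned to genes numbered 9548358 (escalating) and 9376097 (nonescalating), and the translation factors took 0.603% and 0.485% of them. With 1 library per group there is no replicate check and no p-value, so values below compare 2 libraries, not 2 conditions. Levels are CPM values relative to the TMM-scaled library size, and ratios are escalating over nonescalating. Each ratio has an exact 95% counting interval (Clopper-Pearson), which covers counting error only, since reads are not independent molecules. A gene was called higher or lower at 1.5-fold with an interval that excluded 1. The median log2 ratio of all 12213 measured genes was 0.02 after TMM scaling and 0.38 after scaling to total reads, so directions are relative to the TMM centre. The libraries also stood apart in makeup: reads outside any gene were 28.6% and 18.1% of all listed reads, reads in more than 1 gene 8.06% and 18.9%, and the 10 symbols with the most reads held 20.0% and 32.8% of assigned reads. Markers of other cells differed widely. All 12 microglial markers were called lower, with summed levels of 34.9 CPM (escalating) and 1552 CPM (nonescalating) and no Trem2 count in the former. All 10 astrocyte markers, 7 of 10 of mature oligodendrocytes and 8 of 9 measured of endothelium were called lower as well. The 10 pan-neuronal markers summed to 6585 and 4963 CPM, of which Snap25 alone held 3740 and 2487 CPM. Their log2 ratios were above 0 for 8 and below for 2, and 1 was called higher. The 12 striatal projection neuron markers summed to 8245 and 7336 CPM, with 5 log2 ratios above 0 and 7 below.

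Most translation factor genes were close to equal in the libraries. Among the 58 measured, 2 were called higher, the elongation factor Eef1a2 and the cap-binding homologue Eif4e2, while 9.39% of all measured genes were called higher. In the other direction 3 were called lower, the eIF2 kinase Eif2ak2, the synthetase-complex gene Eef1e1 and the eEF2 kinase Eef2k, while 17.2% of all measured genes were. As shares of the members these are 3.45% and 5.17%. The members' log2 ratios had a median of 0.10 and quartiles of -0.12 and 0.23, against -0.40 and 0.32 for all measured genes. A log2 ratio between -0.5 and 0.5 was found for 84.5% of members and for 65.7% of all measured genes. With total-read scaling 15 members were called higher and 1 lower, beside 31.7% and 9.41% of all measured genes. At a lower threshold, a ratio of 5 to 4, 7 members were called higher and 11 lower, beside 20.2% and 25% of all measured genes. At 2-fold 0 and 1 were, beside 2.07% and 8.97%. Among genes with at least 200 counts 2 members were called higher and 1 lower, beside 6.94% and 15% of genes.

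**Figure D1:**
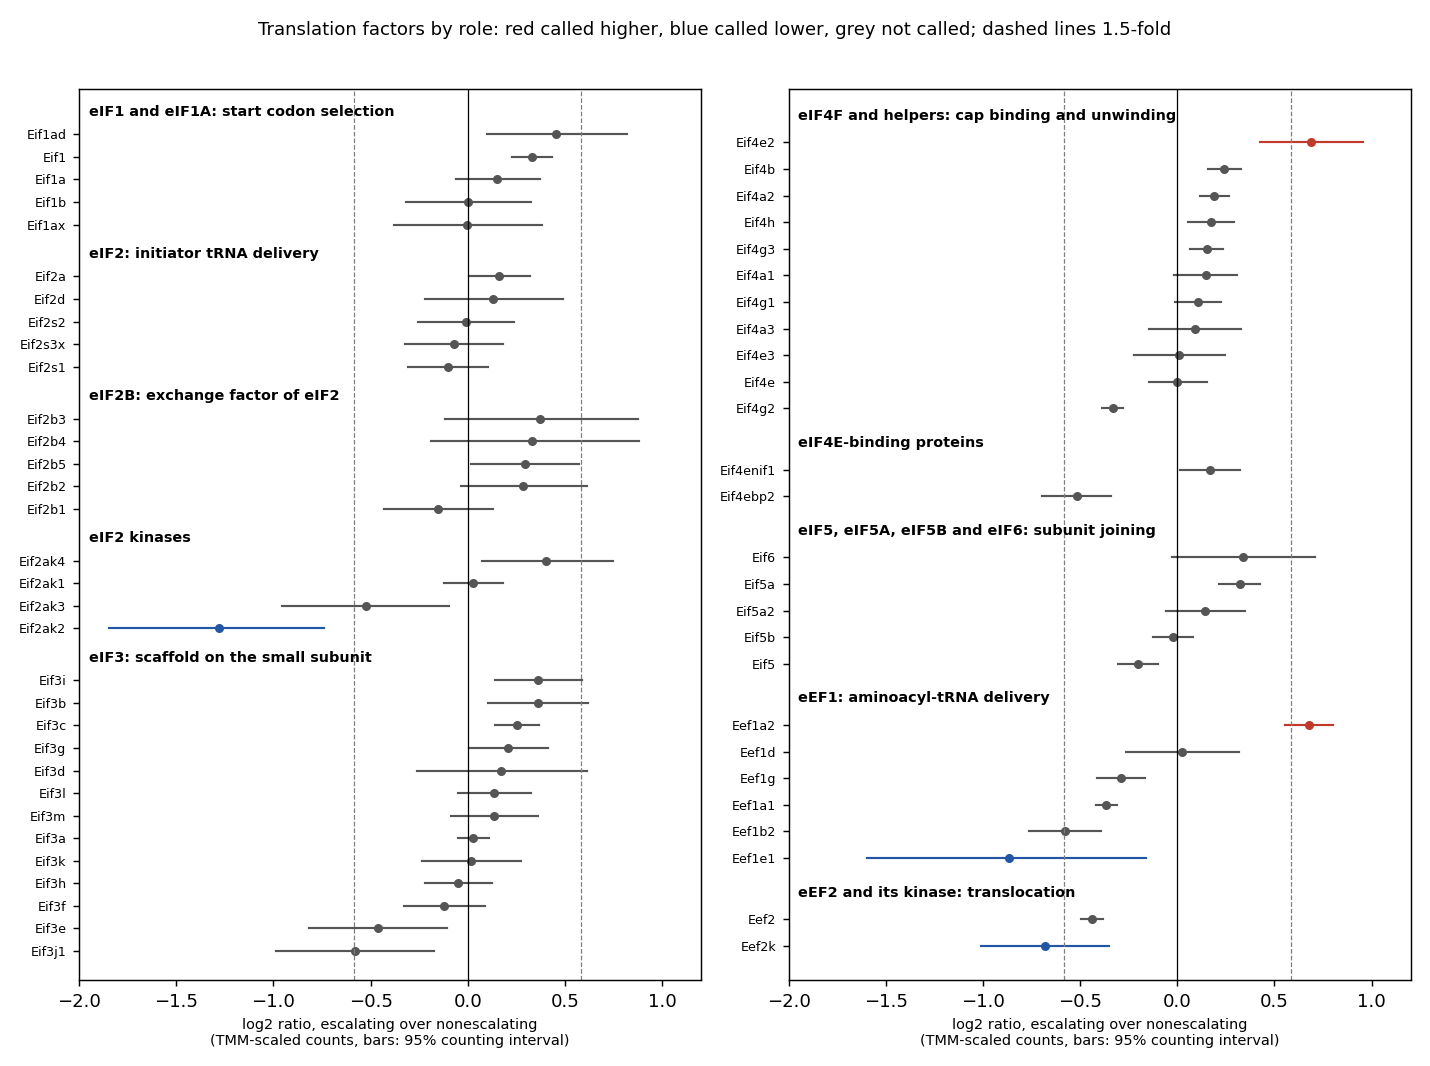
Log2 ratio of escalating over nonescalating (x axis) for each of the 58 measured translation factors, grouped by role, with 95% counting intervals as bars and 1.5-fold as dashed lines. Eef1a2 and Eif4e2 lie at 0.68 and 0.69 on the right, Eif2ak2 at -1.28 is farthest left, and most other initiation factors lie near 0.

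Split by symbol only, initiation (Eif) and elongation (Eef) genes lay on different sides of the centre. The 50 measured Eif genes had a median log2 ratio of 0.14, with 35 above 0 and 15 below. They include the eIF2 kinases, the eIF4E-binding proteins and Eif5a, which acts on stalled ribosomes. The 8 measured elongation genes, which include the kinase gene Eef2k and Eef1e1, had a median of -0.40, with 2 above 0 and 6 below. The gap between the medians, 0.54 log2, does not depend on the scaling, although the medians themselves were 0.50 and -0.041 with total-read scaling. Reads of elongation genes made up 24.3% of all translation factor reads (exact 95% binomial interval 23.9 to 24.6) in the escalating library, against 29.0% (28.6 to 29.4) in the nonescalating library. Eef1a1 and Eef2 together held 17.9% (17.6 to 18.2) and 22.9% (22.5 to 23.3), and the other elongation genes 6.35% (6.15 to 6.55) and 6.11% (5.90 to 6.34). Cytosolic ribosomal protein genes, which are regulated together with several elongation factors in many settings, had a median of -0.43 over 78 measured, with 1 called higher and 20 lower (25.6%, beside 17.2% of all measured genes). Scaled to total reads, their median was -0.065, beside 0.38 for all measured genes. Of them 2 were then called higher and 1 lower, beside 31.7% and 9.41% of all measured genes.

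Ranked by CPM per kilobase of the longest coding transcript, the elongation factors Eef1a1 and Eef2 were the most abundant members. Eef1a1, the general form of the factor that brings aminoacyl-tRNA to the ribosome, stood at 276 (escalating) and 356 CPM per kb (nonescalating). Eef2, the translocase, stood at 148 and 201. Next came Eif1, a guard of start codon choice, at 139 and 110, Eif5a, the hypusine-bearing factor that relieves stalled ribosomes, at 128 and 102, and the RNA helicase Eif4a2 at 122 and 107. At the low end of the measured genes, Eef1e1 stood at 1.09 and 1.99 and Eif2ak2 at 0.943 and 2.30 CPM per kb.

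**Figure D2:**
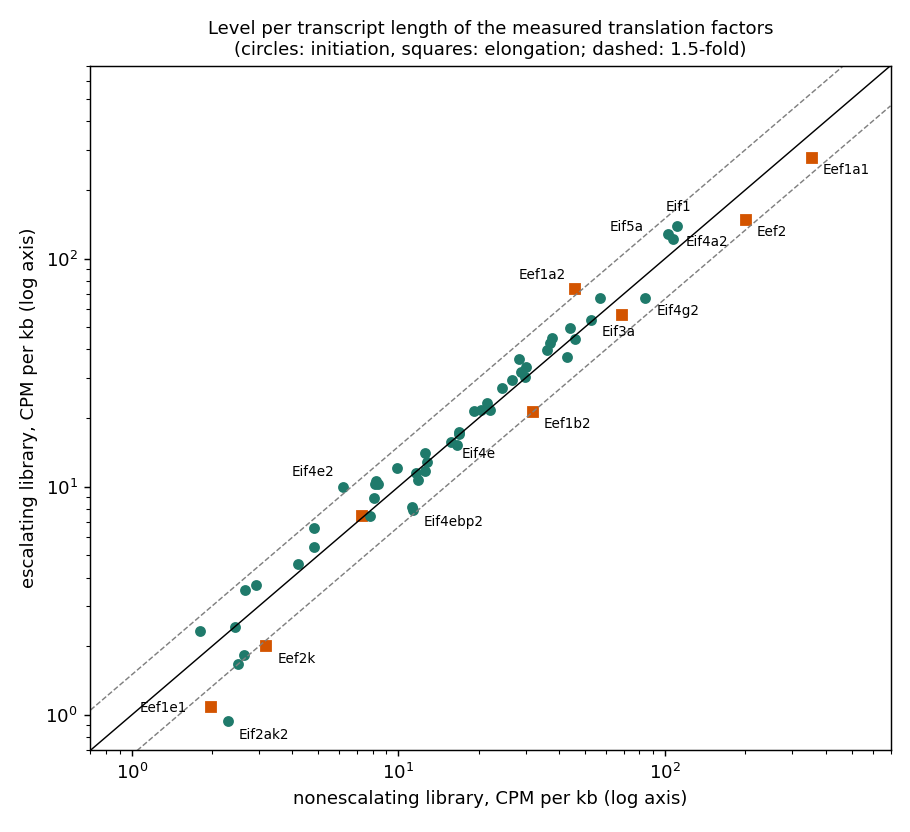
Level of each measured translation factor in CPM per kb of transcript, nonescalating library on the x axis and escalating library on the y axis, both log axes, with initiation factors as circles and elongation genes as squares. Eef1a1 and Eef2 sit at the top right below the line of equality, and Eef1a2 and Eif4e2 lie just beyond the upper 1.5-fold line.

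Transcription starts are shown for Eef1a1 and Eef2, which hold most elongation reads, for the called members Eef1a2, Eif4e2, Eef1e1 and Eef2k, and for Eif2s3x as an uncalled gene with a long run. They are shown because many mRNAs of the translation machinery begin with a run of pyrimidines, the 5′ terminal oligopyrimidine feature through which mTORC1 controls them. Each window holds 15 bases before and 15 after the RefSeq start (GRCm38.p6), with capitals for a C followed by at least 5 pyrimidines whose first base lies within 10 bases of the start, searched on the sense strand only.
Eef1a1, chr9:78481710-78481739, minus strand: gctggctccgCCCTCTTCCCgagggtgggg
Eif2s3x, chrX:94212637-94212666, minus strand: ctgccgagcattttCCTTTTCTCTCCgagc
Eef2, chr10:81176616-81176645, plus strand: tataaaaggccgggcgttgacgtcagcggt
Eef1a2, chr2:181157001-181157030, minus strand: tctctcctggtctgcgttctcgctcactgg
Eif4e2, chr1:87213896-87213925, plus strand: ctgagcgcctcgccagccaaccggaagtag
Eef1e1, chr13:38659014-38659043, minus strand: tcaaggtcctagctgtgcaggccccgcctc
Eef2k, chr7:120842816-120842845, plus strand: tgcgccccgtgcgtcagtcccgccccagcc
Of 48 measured members with a RefSeq start, 11 had such a run (22.9%), beside 24.2% of 8943 measured genes and 19.2% of all 32851 windows. Members with a run had a median log2 ratio of 0.14 and those without one 0.09, an order that turned with a stricter search. When the run had to begin within 5 bases of the start and hold at least 7 pyrimidines after the C, 6 members had one (12.5%, beside 6.12% of measured genes), and the medians were 0.03 with a run and 0.12 without. Of the 11 members with a run in the first search 0 were called, while 8.6% of the 2164 measured genes with such a run were called higher and 18.1% lower. Eif4e2 and Eef2k each have 3 listed starts, of which the first is shown. RefSeq starts can lie some bases from the starts used in striatum, and a window without capitals says only that no such run begins within 10 bases of the listed start. A gene with a misplaced start can thus be counted as without a run. Whether the listed start of Eef2, whose window opens with a TATA-like stretch, is the one used was not tested. The medians with and without a run therefore cannot decide how mRNAs with the oligopyrimidine feature differed.

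Among the eEF1 genes, Eef1a2 was called higher, as were 9.39% of all measured genes. Eef1a2 (chromosome 2, 181147653 to 181157014), the form of eEF1A that replaces Eef1a1 in mature neurons and muscle, drew 1650 reads (escalating) and 789 reads (nonescalating). That is 152 and 95.4 CPM, or 1.60-fold higher (1.47 to 1.74). Eef1a1 (chromosome 9, 78478449 to 78489151) had 5366 and 5286 reads, for a log2 ratio of -0.37 (-0.42 to -0.31). The proportion between these forms therefore differed: Eef1a2 made up 23.5% of the pair's reads (22.5 to 24.5) in the escalating library, against 13.0% (12.2 to 13.9) in the nonescalating library. As an odds ratio this was 2.06 (1.88 to 2.26), a value that no scaling can move. Eef1a1 has 7 near-identical genes or pseudogenes in GENCODE M21, and reads aligned to more than 1 place were left out of the counts, so its level is uncertain. Beside this shift, pan-neuronal markers had a median log2 ratio of 0.32, striatal projection neuron markers of -0.10 and astrocyte markers of -2.18. The part of these cell types in the shift was not tested. In bulk tissue fewer cells of a type and less RNA per cell cannot be told apart.

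The exchange factors that recharge eEF1A did not follow Eef1a2. Eef1b2, the catalytic subunit, had 448 and 511 reads, for a log2 ratio of -0.58 (-0.76 to -0.39), which at 1.49-fold lower is just short of the threshold. Eef1g, a structural subunit, had 1139 and 1065 reads, for a ratio of -0.29 (-0.41 to -0.17). Eef1d, the other catalytic subunit, had 229 and 172 reads, for a ratio of 0.02 (-0.27 to 0.32). Eef1e1 (chromosome 13, 38644207 to 38659058), also known as AIMP3, is a scaffold of the aminoacyl-tRNA synthetase complex rather than an elongation factor. It drew 30 and 42 reads and stood 1.83-fold lower (1.12 to 3.03), the widest interval on the log2 scale among the called members. Scaled to total reads, its log2 ratio was -0.50 and it was not called.

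Of the 2 measured translocation genes, Eef2k was called lower, as were 17.2% of all measured genes, and Eef2 was not called. Eef2 (chromosome 10, 81176631 to 81182498) drew 4944 and 5125 reads and stood 1.36-fold lower (1.30 to 1.41), short of the threshold. Eef2k (chromosome 7, 120842831 to 120907450), the calcium-dependent kinase that halts eEF2 and responds to glutamate receptor activity at synapses, had 142 and 174 counts. At 13.1 and 21.03 CPM it stood 1.60-fold lower (1.28 to 2.01). Scaled to total reads, its log2 ratio was -0.32 and it was not called. Eef2kmt, a methyltransferase that modifies eEF2, had 17 and 28 counts and was not measured.

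Among the 4 kinases of eIF2, each a sensor of a different stress, 1 was called lower. That is 25%, beside 17.2% of all measured genes, and the others were not called. Eif2ak2 (chromosome 17, 78852564 to 78882573) encodes PKR, the interferon-induced sensor of double-stranded RNA, and had 44 and 82 counts. At 4.07 and 9.91 CPM it was 2.44-fold lower (1.67 to 3.60), the largest difference among the measured members, and it was called lower with total-read scaling as well. Eif2ak3, or PERK, which senses unfolded protein in the endoplasmic reticulum, had 89 and 98 reads, for a log2 ratio of -0.53 (-0.96 to -0.10). Eif2ak4, or GCN2, which senses uncharged tRNA, had 203 and 117 reads, for a ratio of 0.41 (0.07 to 0.75), and it was called higher with total-read scaling. Eif2ak1, or HRI, best known as the haem-regulated kinase, had 809 and 606 reads, for a ratio of 0.03 (-0.12 to 0.18). At 17.3 and 16.9 CPM per kb, Eif2ak1 was the most abundant of these kinases in both libraries.

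A stretch just downstream of the Eif2ak2 start is shown for the interferon-stimulated response element that its regulation is known for, searched as GAAANNGAAA on both strands of the window from 250 bases before to 50 after each RefSeq start. In the line below, the capitals mark the match, whose first base is base 19 of the listed transcript.
Eif2ak2, chr17:78882535-78882564, minus strand: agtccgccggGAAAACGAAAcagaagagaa
Such a match was present in 4 of 64 windows of the translation factors (6.25%) and in 3.44% of all 32851 windows. The other member windows with a match belong to Eif2s1, Eif2s3x and Eif3a, which were not called. Their log2 ratios were -0.10, -0.07 and 0.03. A match is not evidence of binding. The microglial, astrocyte, endothelial and mature oligodendrocyte marker lists, with median log2 ratios of -5.73, -2.18, -1.08 and -0.84, were lower beside Eif2ak2. Their part in the Eif2ak2 difference was not tested.

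The substrate of these kinases was even between the libraries. Eif2s1, the subunit that is phosphorylated, had 432 and 354 reads, for a log2 ratio of -0.10 (-0.31 to 0.11). Eif2s2 and the X-linked Eif2s3x, which binds the initiator tRNA, had ratios of -0.01 (-0.25 to 0.24) and -0.07 (-0.32 to 0.18). Eif2a and Eif2d, which are separate factors that can also place tRNA on the ribosome, had ratios of 0.16 and 0.13. None of these 5 genes was called, beside 9.39% of all measured genes called higher and 17.2% lower.

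The subunits of eIF2B, the exchange factor that recharges eIF2 and is blocked by its phosphorylated form, were mostly a little above the centre. Eif2b2, Eif2b3, Eif2b4 and Eif2b5 had log2 ratios between 0.28 and 0.37, and Eif2b1 one of -0.15 (-0.43 to 0.13). Eif2b5, the catalytic subunit, had 284 and 177 reads, for a ratio of 0.29 (0.02 to 0.57). Eif2b3 had 95 and 56 counts and the highest ratio of the group (-0.12 to 0.88). No subunit was called with TMM scaling, beside 9.39% of all measured genes called higher and 17.2% lower. With total-read scaling 4 were called higher, as were 31.7% of all measured genes.

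In eIF3, the largest initiation complex, none of 13 measured subunits was called and the median log2 ratio was 0.14. Of all measured genes, 9.39% were called higher and 17.2% lower. Eif3a, the largest subunit, had 2976 and 2229 reads, for a ratio of 0.03 (-0.05 to 0.11). Eif3i and Eif3b, partners in the same module, had ratios of 0.36 (0.14 to 0.59) and 0.36 (0.10 to 0.62). Eif3c, with 1643 and 1055 counts, had a ratio of 0.25 (0.14 to 0.36). These 3 subunits were called higher with total-read scaling, as were 31.7% of all measured genes. At the other end, Eif3j1, a loosely attached subunit, had 98 and 112 reads, for a ratio of -0.58 (-0.99 to -0.18), and Eif3e had 133 and 140 reads, for a ratio of -0.46 (-0.81 to -0.11). Eif3j1 shares 19.0% of its exon bases with genes on the opposite strand, and Eif3d shares 43.3%, so their counts are uncertain. Eif3j2, a near-identical copy of Eif3j1, had 6 and 3 counts and was not measured.

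In the cap-binding eIF4 group Eif4e2 was the only one of 11 measured genes called. It was called higher, as were 9.39% of all measured genes, and 17.2% were called lower. Eif4e2 (chromosome 1, 87213914 to 87240488) encodes 4EHP, a cap-binding relative of eIF4E that does not engage eIF4G and acts in repression of translation. It had 375 and 178 counts, or 34.7 and 21.5 CPM, and was 1.61-fold higher (1.34 to 1.94). Eif4e itself, the limiting cap-binding protein, had 848 and 648 reads, for a log2 ratio of 0.00 (-0.15 to 0.15). Eif4e3, a further relative, had 350 and 266 reads, for a ratio of 0.01 (-0.23 to 0.24). Of the reads of Eif4e and Eif4e2, the latter held 30.7% (28.1 to 33.3) in the escalating library, against 21.5% (18.8 to 24.5) in the nonescalating library, an odds ratio of 1.61 (1.31 to 1.99). Eif4e1b, known from oocytes, had no count in either library, which allows up to 0.277 and 0.363 CPM.

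The helicases and scaffolds that join eIF4E on the cap lay close to the centre. Eif4a2, the neuron-rich helicase, had 3582 and 2400 reads, for a ratio of 0.19 (0.12 to 0.27), and its relative Eif4a1 had 764 and 528 and a ratio of 0.15 (-0.02 to 0.31). Eif4a2 held 82.4% of this pair's reads (81.3 to 83.5) in the escalating library, against 82.0% (80.5 to 83.3) in the nonescalating library. Small nucleolar RNA genes lie within both, and 3 near-identical genes or pseudogenes match Eif4a1. Eif4a3, a core protein of the exon junction complex, had a ratio of 0.09 (-0.15 to 0.33).

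Eif4g1 and Eif4g3, the large scaffolds, had ratios of 0.11 (-0.01 to 0.23) and 0.15 (0.07 to 0.24). Eif4b, which stimulates the helicase, had 2807 and 1815 reads, for a ratio of 0.24 (0.16 to 0.33). Eif4g2, or DAP5, a scaffold without an eIF4E site that serves cap-independent initiation, had 5790 and 5579 counts, the most of all members. Its ratio of -0.33 (-0.39 to -0.28) was the lowest of the 11 measured genes in this group, and the only one below 0.

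Of the eIF4E-binding proteins, whose release of eIF4E is controlled by mTORC1, striatum held almost only Eif4ebp2, the brain form. Eif4ebp2 drew 495 and 542 reads and stood 1.43-fold lower (1.27 to 1.62), short of the threshold. Eif4ebp1 had 2 and 7 counts and Eif4ebp3 4 and 0, too few for a difference to be detectable at this depth. Reads of Eif4ebp2 made up 99.6% (98.55 to 99.95) and 98.7% (97.4 to 99.5) of those of Eif4ebp1 and Eif4ebp2. Eif4enif1, which carries eIF4E into the nucleus, had a log2 ratio of 0.17 (0.01 to 0.32).

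None of the 5 measured genes of eIF5, eIF5A, eIF5B and eIF6 was called, beside 9.39% of all measured genes called higher and 17.2% lower. Eif5a had 1986 and 1216 reads, for a log2 ratio of 0.32 (0.22 to 0.42), and Eif6, which keeps the large subunit from joining early, had 167 and 101 reads, for a ratio of 0.34 (-0.03 to 0.71). Both were called higher with total-read scaling, as were 31.7% of all measured genes. Eif5a2, the second form of eIF5A, had a ratio of 0.14 (-0.06 to 0.35), and its share of the pair's reads was 19.7% (18.1 to 21.3) and 21.6% (19.6 to 23.8). Eif5, the GTPase activator of eIF2, had 1625 and 1430 reads, for a ratio of -0.20 (-0.31 to -0.10), and Eif5b, which joins the subunits, one of -0.02 (-0.12 to 0.08). In start codon selection, Eif1 had 1988 and 1208 reads, for a ratio of 0.33 (0.23 to 0.44). Eif1ad had the highest ratio of that group at 0.45 (0.10 to 0.82), with 15.3% of its exon bases shared with Banf1 on the opposite strand. Eif1ax had the lowest, with 136 and 104 counts and 12.6 CPM in each library.

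**Figure D3:**
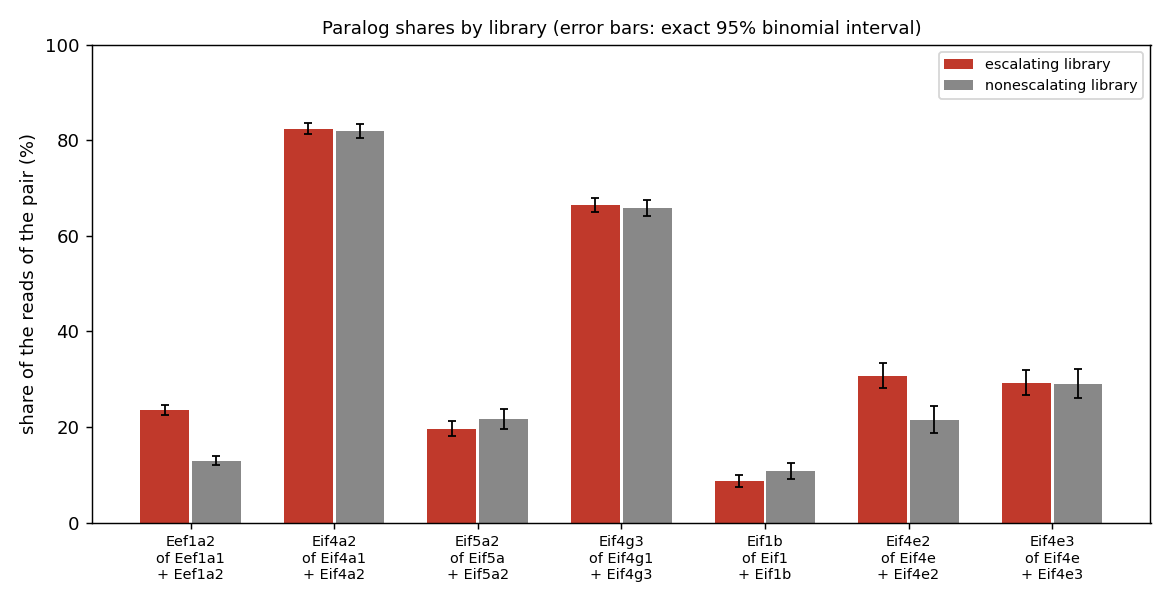
Share of a pair's reads held by one paralog (y axis, percent, starting at 0) in the escalating and nonescalating libraries, with exact 95% binomial intervals. The intervals are apart for Eef1a2 (23.5% and 13.0%) and Eif4e2 (30.7% and 21.5%) and overlap for the other 5 pairs.

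The paralog shares compare members within a library, so library size does not enter. For Eif5a2, Eif4g3, Eif1b, Eif4a2 and Eif4e3 the odds ratio between the libraries lay between 0.796 and 1.03, with intervals that each include 1. Eif4g3 held 66.5% (65.1 to 67.9) and 65.8% (64.1 to 67.5) of the reads of Eif4g1 and Eif4g3. The pairs with Eef1a2 and Eif4e2 had odds ratios of 2.06 and 1.61, with intervals above 1.

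Other genes of translation control were compared by the same call, and each list is given beside the 9.39% of all measured genes called higher and the 17.2% called lower (31.7% and 9.41% with total-read scaling). Of 25 mTORC1 genes 3 were called higher (12%) and 1 lower (4%), with a median log2 ratio of 0.18. Tbc1d7, a subunit of the TSC complex, was 1.96-fold higher (1.44 to 2.69), Mlst8, a subunit of mTOR complexes, 1.54-fold (1.11 to 2.17) and Lamtor2, of the lysosomal anchor, 1.54-fold (1.18 to 2.01). Rheb, the GTPase that activates mTORC1, was 1.53-fold lower (1.31 to 1.79). After scaling to total reads, 12 genes of this list (beside 31.7% of all measured genes) were called higher and 0 lower.

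The list of targets of the integrated stress response, the pathway that eIF2 phosphorylation starts, also holds eIF2 phosphatase genes and regulators of the kinases. Of its 19 measured genes 2 were called higher (10.5%, beside 9.39% of all measured genes) and 5 lower (26.3%, beside 17.2%), with a median of 0.04. Ddit4, an inhibitor of mTORC1 that glucocorticoids and stress induce, drew 153 and 43 reads and stood 2.72-fold higher (1.93 to 3.91). Ddit3, which encodes CHOP, was 1.98-fold higher (1.39 to 2.87). Atf4, the transcription factor of this pathway, had 462 and 291 reads, for a log2 ratio of 0.28. The lower genes were Slc7a11 at 4.96-fold (4.08 to 6.07), Dnajc3 at 2.65-fold (2.31 to 3.04), Phgdh at 2.27-fold (1.84 to 2.82), Slc3a2 at 2.26-fold (1.97 to 2.58) and, named after its values were seen, Psat1 at 1.59-fold (1.48 to 1.72). Slc7a11, Phgdh and Psat1, which serve cystine uptake and serine synthesis, are abundant in astrocytes. The astrocyte markers summed to 2162 CPM (escalating) and 15270 CPM (nonescalating), of which Slc1a2 alone held 1420.5 and 13256 CPM. The median log2 ratio of these markers was -2.18, and their part in these differences was not tested. With total-read scaling 7 were called higher and 4 lower, beside 31.7% and 9.41% of all measured genes.

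Of 21 poly(A)-binding and scanning genes 1 was called higher (4.76%) and 3 lower (14.3%), both below the shares over all measured genes (9.39% and 17.2%), with a median of 0.21. Mcts1, which aids reinitiation, was 1.82-fold higher (1.14 to 3.004). The lower genes were Cyfip1, a partner of the fragile X protein, at 1.75-fold (1.57 to 1.95), Paip1 at 1.69-fold (1.34 to 2.14) and Pabpc1, the main cytoplasmic poly(A)-binding protein, at 1.504-fold (1.42 to 1.59). In termination and rescue 2 of 12 were called higher (16.7%, beside 9.39%) and 0 lower (beside 17.2%), with a median of 0.17. They were Gspt2, a release factor GTPase, at 1.63-fold (1.28 to 2.09) and Gtpbp1 at 1.51-fold (1.33 to 1.72). With total-read scaling 10 and 5 genes of these lists were called higher and none lower, beside 31.7% and 9.41% of all measured genes.

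Enzymes that modify the elongation factors had 2 of 10 measured called higher (20%, beside 9.39% of all measured genes) and 0 lower (beside 17.2%), with a median of 0.33. Dhps, which makes the hypusine of eIF5A, drew 89 and 26 reads and stood 2.62-fold higher (1.67 to 4.22). Dnajc24, which serves the diphthamide modification of eEF2, was 1.65-fold higher (1.11 to 2.49). Among the mitochondrial translation factors 3 of 10 were called higher (30%, beside 9.39%) and 0 lower (beside 17.2%), with a median of 0.25. Tsfm and Tufm, the mitochondrial counterparts of the eEF1 exchange factor and of eEF1A, were 2.83-fold (1.71 to 4.90) and 1.98-fold higher (1.49 to 2.64). Mtrf1, a mitochondrial release factor, was 1.78-fold higher (1.196 to 2.69). With total-read scaling 5 genes of each list were called higher and 0 lower, beside 31.7% and 9.41% of all measured genes. The list medians of cytosolic elongation genes (-0.40) and mitochondrial factors (0.25) thus lay on opposite sides of the median of all measured genes (0.02). With total-read scaling they were -0.041 and 0.61, beside 0.38 for all measured genes.

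**Figure D4:**
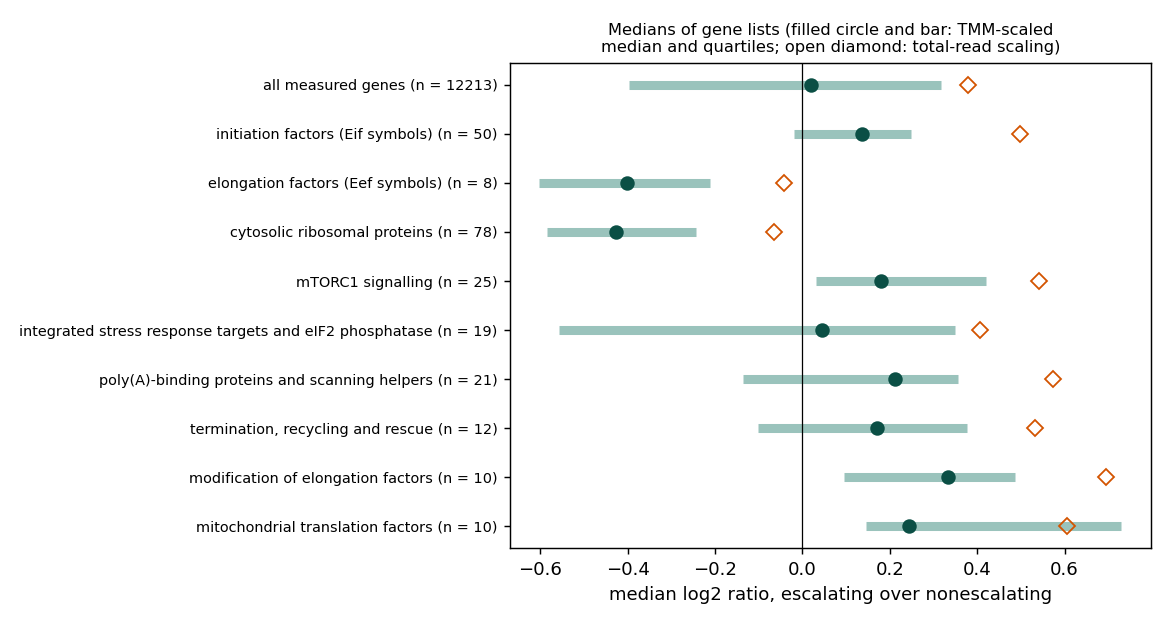
Median log2 ratio of escalating over nonescalating for each list (x axis), with TMM scaling as filled circles and quartiles as bars, and with total-read scaling as open diamonds. Elongation factors and ribosomal proteins lie at -0.40 and -0.43 with TMM scaling, and all other lists shown lie between 0.02 and 0.33.

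Across the 58 measured members the log2 ratio went with the GC content of the longest coding transcript, with Pearson's r = 0.34 and Spearman's rho = 0.38. Over 11042 measured genes with a value the same figures were 0.07 and 0.09. GC content had the strongest relation among the features compared. For log2 transcript length the members had r = -0.24 and rho = -0.22 (-0.08 and -0.14 over those genes). For mean log2 CPM the members had 0.13 and 0.02, beside 0.11 and 0.005 for all measured genes. The points are genes that share the same pair of libraries and are not independent replicates, and this is a description only.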

How the data were processed

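Total RNA of dissected dorsal striatum was sequenced as 1 library per group; groups come from the sample titles. STAR 2.0.0e, the build mm10 and HTSeq are named in the submitters' processing notes. The annotation, strand setting and HTSeq version were not given in the sources used here. As deposited, the files hold the authors' unnormalised counts, 1 per gene symbol. Reads in more than 1 gene (escalating 8.06%, nonescalating 18.9% of all listed reads) and multiply aligned reads (9.53% and 7.78%) were not assigned by the authors and stayed out of library sizes. How such reads fell on members that overlap other genes (8 of 58 share over 10% of exon bases) was not tested.

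TMM factors (edgeR 4.0.16, R 4.3.3) were 1.13 and 0.882. Log2 ratios have a pseudocount of 0.5; folds have none. No count test was run, since there are no replicates. Transcript lengths, positions and overlaps are from GENCODE M21 (same build as mm10); all 58 measured members matched. Near-identical genes share 95% identity over 50% of the longest coding transcript (BLAST+ 2.17.0). Start windows are from RefSeq. Other steps used scipy 1.17.1, pandas 2.3.3 and matplotlib 3.10.9 in Python 3.11.15. The calling rule was first tested on simulated counts that held counting error only, so that test does not cover variation between animals or libraries.

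The members, roles and lists were chosen with earlier results of these data known. Genes named are every called member, the highest and lowest of each role, a fixed set of main factors, members under the count minimum, and the called genes of each pathway list. Alternatives changed the scaling (size factors of DESeq2 1.42.0, total reads with and without the 10 symbols with the most reads), the filter, the pseudocount and the threshold.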

Additional observations from a re-analysis of the deposited data

How the results depend on the processing

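With DESeq2 size factors, a filter of 10 counts or a pseudocount of 5, the calls on all 58 measured members were the same; the lower filter also called Eef2kmt lower, 2.15-fold (1.14 to 4.19). Scaling to total reads moved most: 15 members were called higher and 1 lower, beside 31.7% and 9.41% of all measured genes. The medians were 0.46 for all members, 0.50 for initiation and -0.041 for elongation factors, beside 0.38 for all measured genes. A positive median was found for 9 of 10 roles (5 with TMM). Of the other pathway genes 44 were called higher and 4 lower, beside the same 31.7% and 9.41%. With TMM these were 13 and 9, beside 9.39% and 17.2%. The gap between initiation and elongation medians kept its size with total-read scaling by construction. Without the 10 symbols with the most reads, total-read scaling called 20 pathway genes higher and 6 lower, and Eef2k was no longer called. The share over all measured genes was not computed for that scaling. At a ratio of 5 to 4, 7 members and 29 pathway genes were called higher, beside 20.2% of all measured genes. Lower calls there were 11 and 13, beside 25%. At 2-fold 0 members were called higher and 1 lower, and 3 and 4 pathway genes, beside 2.07% and 8.97%. A filter of 200 counts left 1 member called lower and 5 pathway genes higher, since fewer genes were tested. Of all genes with at least 200 counts, 15% were called lower and 6.94% higher. No paired analysis was possible because each group has 1 library. Depth limits the members under 50 counts and Eef1e1.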

Other observations

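Some genes of the same families are not among the members: Eefsec falls outside the naming rule, and Eif2s3y was left out. Eefsec, the elongation factor that brings selenocysteine to the ribosome, drew 79 and 60 reads, for a log2 ratio of 0.01 (-0.49 to 0.52). Eif2s3y, the Y-linked copy of Eif2s3x, drew 280 and 170 reads, for a ratio of 0.33 (0.05 to 0.62). Neither was called, and both were chosen after their values were seen.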
